A study of Homo sapiens with 16 samples.

Results

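The BCL2 family was examined as 10 genes chosen by name: the anti-apoptotic genes BCL2, BCL2L1 and MCL1, the effector genes BAX and BAK1, and the BH3-only genes BID, BCL2L11, BMF, PMAIP1 and BBC3. All 10 were found among the 59428 genes of the count table. Expression was measured in 2 ovarian carcinoma cell lines, OVCAR3, in which BRCA1 is intact, and UWB1.289, which carries a deleterious BRCA1 mutation. OVCAR3 received 7.5 µM olaparib, an inhibitor of PARP enzymes, and UWB1.289 received 3.5 µM, each for 96 h, and the control cells of each line received the solvent DMSO for the same time. RNA was sequenced from the 3′ ends of transcripts in 4 replicates of each of the 4 groups (16 libraries). Each line stands for its BRCA1 status alone, and the lines also differed in dose and culture medium, so what belongs to the line, to BRCA1, to the dose or to the medium cannot be told apart. The labels do not say whether the replicates came from separate cultures, so the p-values measure the spread between these libraries.

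BCL2 family proteins control the release of cytochrome c from mitochondria, the step that commits a cell to intrinsic apoptosis. BCL2, BCL-XL (from BCL2L1) and MCL1 hold the pore-forming proteins BAX and BAK in check. The BH3-only proteins BID, BIM (BCL2L11), BMF, NOXA (PMAIP1) and PUMA (BBC3) are induced or activated by stress and either bind the anti-apoptotic proteins or activate BAX and BAK directly. PMAIP1 and BBC3 are controlled mainly through transcription, whereas much of the control of MCL1, BIM and BID acts on the protein, which RNA counts do not show.

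Libraries held 5599571 to 7730228 counts (median 6413979.5), of which 10.4% to 13.7% were mitochondrial. Values are CPM, that is counts scaled to a common library size, after TMM normalization across the 16 libraries, and 1 read was worth 0.132 to 0.178 CPM. The olaparib replicate 4 of OVCAR3 stood apart from its group, with a chi-square per gene of 8.43 to 13.04 against the other 3 libraries, which differed from each other by 3.67 to 4.70. Where leaving it out changed the call of a named gene, both values are given. In UWB1.289 with olaparib, replicates 1 and 2 also differed from each other and from the remaining libraries (6.78 to 8.38), and replicates 3 and 4 did not differ as much (3.17). Of the markers of serous ovarian carcinoma, EPCAM and PAX8 were at 264.8 CPM or more in every library, whereas WT1 was at or near 0 in UWB1.289 (0 to 3 counts). The 8 markers of leukocytes, endothelium and fibroblasts summed to 13 to 31 counts in the OVCAR3 libraries, and to 81 to 108 with DMSO and 112 to 150 with olaparib in UWB1.289. The fibroblast markers DCN and LUM and the T cell marker CD3E had at most 1 count in any library, and the counts in UWB1.289 were mainly those of PTPRC, CD14 and CDH5. Their part in the results was not tested.

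In the human genome (GRCh38, GENCODE release 44) PMAIP1 lies at chr18:59899996-59904305 on the plus strand, BBC3 at chr19:47220822-47232766 on the minus strand, BCL2L11 at chr2:111119378-111168444 on the plus strand and BMF at chr15:40087890-40108892 on the minus strand. The sequence before a RefSeq transcription start is shown for PMAIP1, BCL2L11 and BMF, because PMAIP1 rose with olaparib in both lines while BCL2L11 and BMF fell in OVCAR3. The stretches are from RefSeq (GRCh38.p14), run 5′ to 3′ on the gene's strand, and end at the base before the start for PMAIP1 (chr18:59899746-59899995) and BCL2L11 (chr2:111120664-111120913) and 13 bases before it for BMF (chr15:40108893-40109129), where annotated exon sequence was left out. The RefSeq start used for BCL2L11 lies inside the GENCODE interval of the gene. For BMF the stretch before another RefSeq start (chr15:40106967-40107216) held no motif match and is not shown. Capitals mark TGACG or its complement CGTCA, the half-site of ATF and CREB factors, in PMAIP1 and BMF, and GTAAACA, the core of the FOXO site, in BCL2L11.
PMAIP1: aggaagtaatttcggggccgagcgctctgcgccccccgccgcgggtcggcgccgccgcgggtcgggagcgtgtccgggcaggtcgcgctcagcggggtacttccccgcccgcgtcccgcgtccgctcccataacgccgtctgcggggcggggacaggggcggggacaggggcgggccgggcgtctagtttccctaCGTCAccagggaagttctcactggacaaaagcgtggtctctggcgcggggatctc
BCL2L11: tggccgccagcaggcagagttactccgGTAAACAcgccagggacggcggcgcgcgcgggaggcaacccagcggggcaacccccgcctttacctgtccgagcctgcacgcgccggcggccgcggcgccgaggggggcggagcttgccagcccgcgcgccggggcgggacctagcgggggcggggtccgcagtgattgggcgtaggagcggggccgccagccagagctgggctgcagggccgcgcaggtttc
BMF: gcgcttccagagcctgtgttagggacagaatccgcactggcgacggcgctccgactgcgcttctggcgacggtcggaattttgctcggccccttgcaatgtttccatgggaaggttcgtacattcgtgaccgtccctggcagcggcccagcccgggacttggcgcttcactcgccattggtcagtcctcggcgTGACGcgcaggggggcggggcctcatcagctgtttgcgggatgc

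Motifs of 6 kinds were searched on both strands in the windows from 250 bases before to 50 bases after each RefSeq start. There were 15 windows for 9 of the members, with none given for MCL1. TGACG was found in 5 of these 15 windows, for 5 members (BCL2, BCL2L1, BAX, BMF and PMAIP1), and in 24.6% of all 35116 windows. GTAAACA was found in 1 of the 15, for BCL2L11, and in 3.42% of all windows. The interferon response element, GAAA repeated after any 2 bases, was found in 1 of the 15, for BBC3, and in 3.57%. The NF-kB site was matched in 1 of the 15, for BMF (5.91% of all windows). The E2F motif TTTCCCGC (1.63%) and the STAT motif TTCNNNGAA (7.66%) were matched for no member. The half-site shared by PMAIP1, which rose, and BMF, which fell, is thus a common string, and the matches describe the sequence only.

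In OVCAR3 the 5 BH3-only genes among the members changed with olaparib, 3 upward and 2 downward. PMAIP1, BBC3 and BID rose, by 1.93-fold, 1.30-fold and 1.23-fold, and BMF, BCL2L11 and BCL2 fell, by 1.68-fold, 1.40-fold and 2.03-fold. In all, 6 of 10 members passed an adjusted p below 0.1 (edgeR's quasi-likelihood test with Benjamini-Hochberg adjustment over all genes), 3 up and 3 down, where 31.5% of the 13031 genes tested did. By role, these were 5 of 5 BH3-only genes, 1 of 3 anti-apoptotic genes and 0 of 2 effector genes of the chosen set. Of BH3-only genes outside that set, BIK was called up in OVCAR3, whereas HRK (log2 fold change -0.18) and BAD (0.09) were not called. Neither effector had an unadjusted p below 0.05 in edgeR (0 of 2), and DESeq2 called 0 of 2. The median log2 fold change of the 10 members was 0.14, against -0.01 over all genes tested. With the study's additional demands of a change beyond 2-fold and an average count above 10, only BCL2 was left, where 5.23% of all genes were called. In bulk RNA, fewer cells with a transcript and less of it per cell cannot be told apart.

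**Figure D1:**
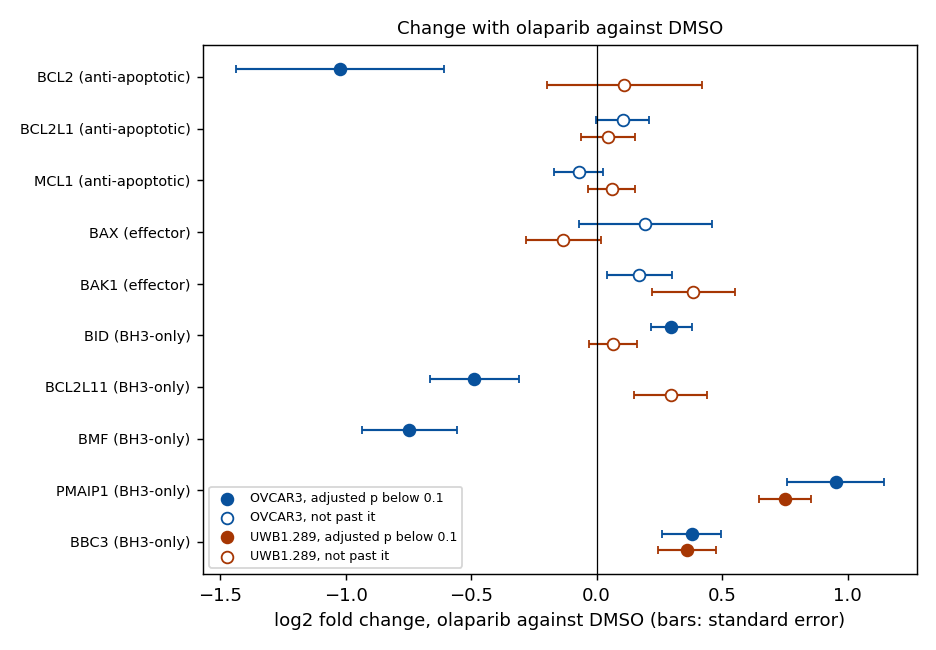
Log2 fold change of each BCL2 family gene with olaparib against DMSO (horizontal axis) in OVCAR3 (blue) and UWB1.289 (brown), with the standard error as bars; filled points passed an adjusted p below 0.1 in edgeR's quasi-likelihood test. PMAIP1 and BBC3 lie to the right of 0 in both lines, while BCL2, BCL2L11 and BMF lie to the left in OVCAR3 alone; BMF has no point in UWB1.289 because its counts were too low to test.

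PMAIP1, which encodes the MCL1-binding protein NOXA, showed the largest rise of the members in OVCAR3. Its level was 15.2, 16.6, 12.4 and 7.73 CPM in the DMSO replicates 1 to 4 and 31.9, 25.7, 22.0 and 20.0 CPM in the olaparib replicates. The lowest olaparib library was above the highest DMSO library. The log2 fold change was 0.95 ± 0.19 (SE, n = 4 against 4; adjusted p = 0.00113 by edgeR), and without the olaparib replicate 4 it was 1.05 (adjusted p = 1.34e-05).

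BBC3, which encodes PUMA, an inhibitor of all anti-apoptotic members and an activator of BAX and BAK, rose by less but with little spread. The DMSO libraries held 19.0, 21.1, 18.8 and 18.7 CPM and the olaparib libraries 25.6, 24.1, 26.1 and 24.7 CPM. The groups did not overlap, and the log2 fold change was 0.38 ± 0.12 (SE, adjusted p = 0.0220 by edgeR). BID, whose product links death receptors and caspase-8 to mitochondria once it is cleaved, was at 88.5, 95.4, 98.1 and 103.3 CPM with DMSO and at 107.7, 125.2, 115.4 and 124.1 CPM with olaparib. These groups too were apart, with a log2 fold change of 0.30 ± 0.08 (SE, adjusted p = 0.0108 by edgeR).

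BMF, whose product is held at the cytoskeleton in unstressed cells, went the other way. It fell from 18.3, 11.9, 14.2 and 14.6 CPM with DMSO to 7.13, 10.4, 10.8 and 6.70 CPM with olaparib. Every olaparib library was below every DMSO library, and the log2 fold change was -0.75 ± 0.19 (SE, adjusted p = 0.00652 by edgeR; -0.63 and 0.0100 without the olaparib replicate 4). Thus 4 of the 10 members had groups that did not overlap in OVCAR3, PMAIP1, BBC3 and BID upward and BMF downward, where 25.7% of all genes tested did.

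BCL2L11 encodes BIM, a BH3-only protein that binds every anti-apoptotic member. Its level was 21.6, 17.3, 22.1 and 22.5 CPM with DMSO and 18.9, 16.04, 15.8 and 9.02 CPM with olaparib. The groups overlapped through the DMSO replicate 2, and the lowest value was that of the olaparib replicate 4. The log2 fold change was -0.49 ± 0.18 (SE, adjusted p = 0.0515 by edgeR), and without that library it was -0.31 (adjusted p = 0.120), so the call depends on it. The call was also lost without DMSO replicate 1, 3 or 4 (adjusted p 0.106 to 0.127). A long noncoding gene on the opposite strand, MIR4435-2HG, overlaps BCL2L11 and held 1462 counts over the 16 libraries against 1817 for BCL2L11. How strand was treated in counting is not given in the sources used here, so reads of the 2 genes may not be separated. MIR4435-2HG did not pass the test in OVCAR3, and its log2 fold change there was 0.33 ± 0.18 (SE, adjusted p = 0.196 by edgeR).

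Among the anti-apoptotic genes, BCL2 was called in OVCAR3 at very low counts. It had 16, 10, 11 and 19 reads with DMSO (2.64, 1.75, 1.59 and 2.72 CPM) and 4, 5, 6 and 14 reads with olaparib (0.620, 0.779, 0.852 and 1.91 CPM). The olaparib replicate 4 lay within the range of the DMSO libraries and the other 3 lay below it. The log2 fold change was -1.02 ± 0.41 (SE, adjusted p = 0.0794 by edgeR), and -1.505 without the olaparib replicate 4 (adjusted p = 0.0169). DESeq2 did not call it (adjusted p = 0.184), nor did edgeR without a filter on low counts (0.142) or with any one of DMSO replicates 1 and 4 and olaparib replicates 1, 2 and 3 left out (0.170 to 0.203).

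BCL2L1 and MCL1 did not pass the test in OVCAR3. BCL2L1, which encodes BCL-XL, was at 63.2, 69.9, 60.1 and 61.2 CPM with DMSO and at 69.0, 67.0, 54.8 and 81.5 CPM with olaparib, and its log2 fold change of 0.10 had a 95% interval (normal approximation) from -0.10 to 0.31. MCL1, whose product turns over within hours and is neutralized by NOXA, was at 263.8, 277.5, 274.6 and 246.2 CPM with DMSO and at 295.6, 250.5, 264.7 and 197.3 CPM with olaparib. Its interval reached from -0.26 to 0.12 on the log2 scale. In both genes the olaparib replicate 4 gave the extreme value of its group, the highest for BCL2L1 and the lowest for MCL1.

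The effector genes gave values within the spread of their groups in OVCAR3. BAX had 25 to 48 reads with DMSO and 29 to 57 with olaparib, which is 5.90 ± 2.12 and 6.71 ± 1.85 CPM (SD, n = 4), and its interval on the log2 scale, -0.33 to 0.71, was wide. BAK1 was at 21.7 ± 2.58 CPM with DMSO and 24.3 ± 2.61 CPM with olaparib, with an interval from -0.08 to 0.42.

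**Figure D2:**
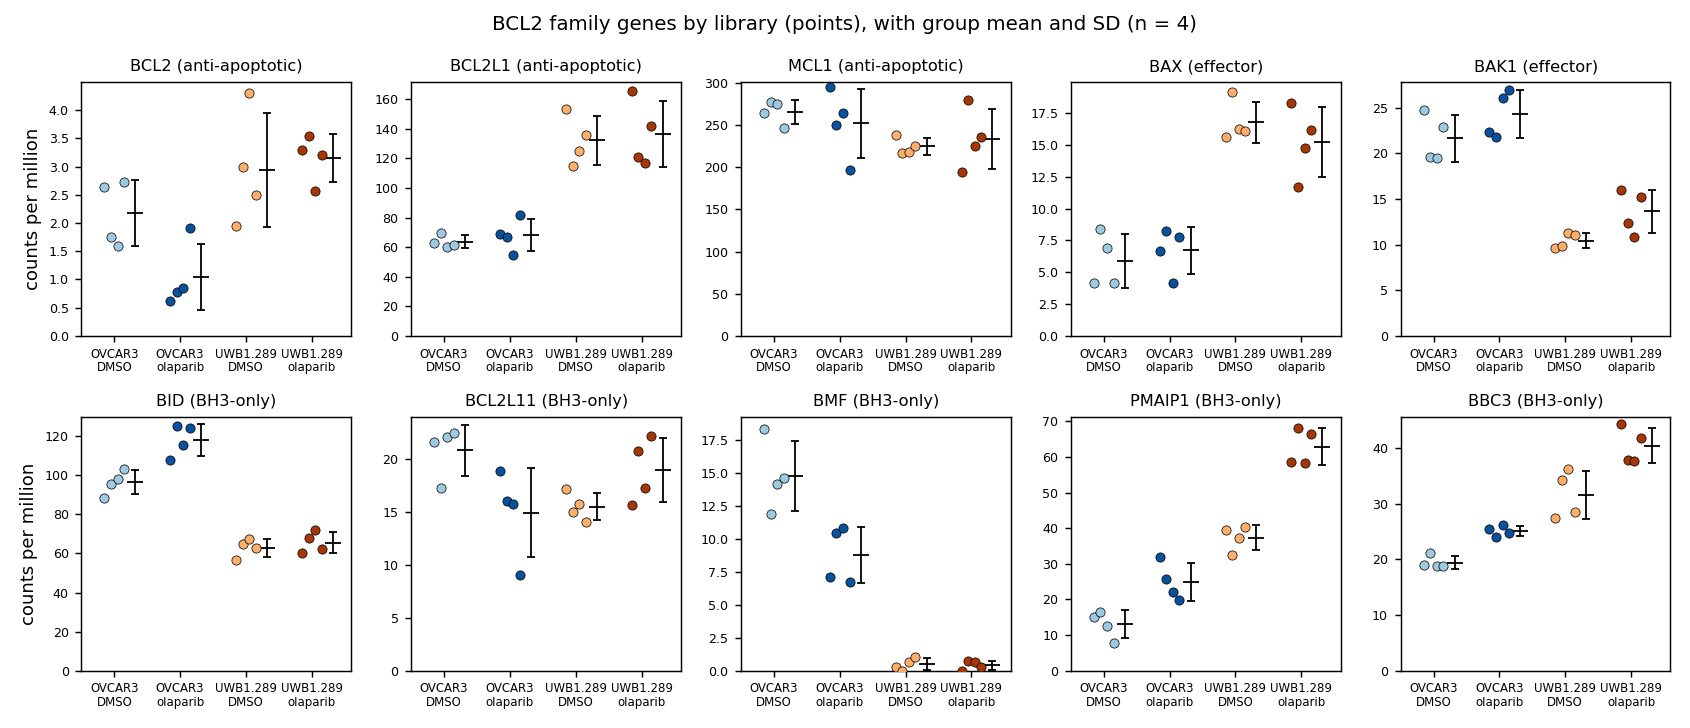
CPM (vertical axes, from 0) of the 10 BCL2 family genes in each of the 16 libraries (points, replicates 1 to 4 from left to right) by line and treatment, with the group mean and SD as bars. PMAIP1 and BBC3 step up with olaparib in both lines without overlap, BMF lies between 0 and 1.05 CPM in UWB1.289, and BCL2L1 and BAX lie higher in UWB1.289 than in OVCAR3 in every library.

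In UWB1.289 the same pair of BH3-only genes, PMAIP1 and BBC3, rose with olaparib, and no other member passed the test. These 2 of 9 members tested were called, both up, where 13.9% of the 12748 genes tested were called (7.77% up). They were also the 2 members whose groups did not overlap, where 14.7% of all genes were apart. The median log2 fold change of the tested members was 0.11 against 0.00 over all genes, and 0 of 9 passed the study's additional demands, where 2.21% of all genes did. Of the effectors and the anti-apoptotic genes edgeR called 0 of 5 and DESeq2 0 of 5, and BAK1 alone had an unadjusted p below 0.05.

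PMAIP1 rose in UWB1.289 from 39.6, 32.5, 37.3 and 40.2 CPM with DMSO to 58.5, 68.2, 58.3 and 66.5 CPM with olaparib. All olaparib libraries were above all DMSO libraries, and the log2 fold change was 0.75 ± 0.10 (SE, adjusted p = 2.83e-05 by edgeR), a rise of 1.68-fold. BBC3 rose from 27.4, 34.3, 36.3 and 28.6 CPM to 44.3, 37.98, 37.8 and 41.9 CPM. These groups were apart by a small gap, and the log2 fold change was 0.36 ± 0.12 (SE, adjusted p = 0.0527 by edgeR). The call for BBC3 was lost without DMSO replicate 1 or 4 or olaparib replicate 1 or 4 (adjusted p 0.106 to 0.165).

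The remaining members of UWB1.289 gave overlapping groups. BAK1 was at 9.63, 9.82, 11.3 and 11.1 CPM with DMSO and at 15.98, 12.4, 10.9 and 15.3 CPM with olaparib. A single olaparib library fell into the DMSO range, and the log2 fold change was 0.39 ± 0.17 (SE, adjusted p = 0.158 by edgeR). BCL2L11 was at 17.1, 14.98, 15.8 and 14.1 CPM with DMSO and at 15.7, 20.8, 17.3 and 22.2 CPM with olaparib, with a log2 fold change of 0.30 ± 0.14 (SE, adjusted p = 0.226 by edgeR). BCL2, BCL2L1, MCL1, BAX and BID had log2 fold changes between -0.13 and 0.11.

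BMF could not be tested in UWB1.289. It had 2, 0, 4 and 8 reads in the DMSO libraries and 0, 4, 4 and 2 reads in the olaparib libraries. At this depth a fall of BMF, or a small rise, was not detectable in that line.

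The olaparib effects of the lines were compared directly as an interaction over all 16 libraries. BCL2L11 was the 1 member of 10 for which they differed, where 10.9% of the 14243 genes tested were called. By the study's additional demands it was 0 of 10, where 3.66% of all genes were left. Its effect was higher in UWB1.289 than in OVCAR3 by 0.79 ± 0.24 on the log2 scale (SE, adjusted p = 0.0392 by edgeR). Without the UWB1.289 olaparib replicate 4, the highest of that group, the difference was 0.67 and was not called (adjusted p = 0.111), and without the OVCAR3 olaparib replicate 4 it was 0.60 (adjusted p = 0.0666). For BCL2 the difference was 1.14 ± 0.52 (SE, adjusted p = 0.200 by edgeR), and without the OVCAR3 olaparib replicate 4 it was 1.61 and was called (adjusted p = 0.0681). For PMAIP1 it was -0.20, with a 95% interval from -0.63 to 0.23, and for BBC3 it was -0.02, with an interval from -0.33 to 0.29. BMF was tested here because the filter took in the OVCAR3 libraries, and its interval, -1.17 to 1.97, was too wide to tell a fall from a rise.

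With DMSO, the lines differed in 9 of 10 members, 4 higher and 5 lower in UWB1.289, where 79.9% of the 13366 genes tested differed. The share of members was near this background. The same 9 had groups that did not overlap, where 69.4% of all genes did not, and 5 passed the study's additional demands, where 38.4% did. The median log2 difference of the members was 0.09 and that of all genes -0.02. BCL2 was the member not called, with a log2 difference of 0.42 ± 0.34 (SE, adjusted p = 0.267 by edgeR).

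BMF gave the largest difference of the members between the lines. It was at 14.7 ± 2.66 CPM in OVCAR3 and 0.498 ± 0.453 CPM in UWB1.289 (SD, n = 4), a log2 difference of -4.76 ± 0.34 (SE, adjusted p = 1.45e-13 by edgeR). The value rests on at most 8 reads in any UWB1.289 library with DMSO. The other BH3-only genes split: PMAIP1 (1.54) and BBC3 (0.70) were higher in UWB1.289, and BID (-0.62) and BCL2L11 (-0.44) were lower.

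The effectors differed between the lines in opposite directions. BAX was at 15.6, 19.1, 16.3 and 16.1 CPM in UWB1.289 with DMSO, above the highest OVCAR3 value of 8.38 CPM, and the log2 difference was 1.51 ± 0.20 (SE, adjusted p = 6.02e-08 by edgeR). BAK1 was lower in UWB1.289, at 10.5 ± 0.855 against 21.7 ± 2.58 CPM (SD, n = 4), a log2 difference of -1.05 ± 0.15 (SE, adjusted p = 1.88e-07 by edgeR). Of the anti-apoptotic genes, BCL2L1 was 2.08-fold higher in UWB1.289, at 153.1, 114.7, 125.0 and 136.1 CPM, with no overlap with OVCAR3 (edgeR adjusted p = 7.15e-12). MCL1 was 1.18-fold lower, at 224.6 ± 9.85 against 265.5 ± 14.2 CPM (SD, n = 4), with an edgeR adjusted p of 0.00217.

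**Figure D3:**
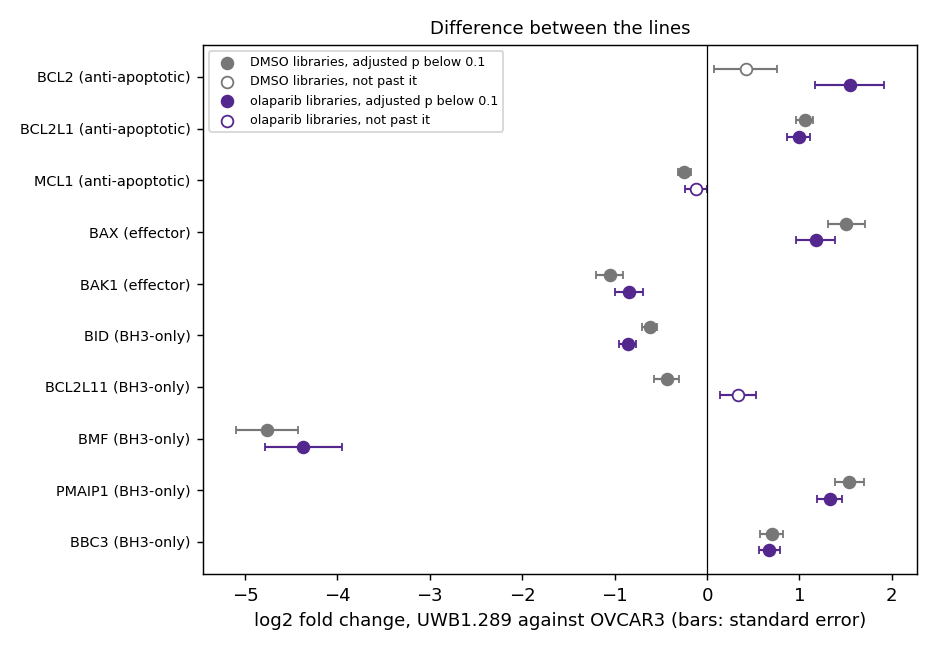
Log2 fold change of each BCL2 family gene in UWB1.289 against OVCAR3 (horizontal axis) with DMSO (grey) and with olaparib (purple), with the standard error as bars; filled points passed an adjusted p below 0.1 in edgeR's quasi-likelihood test. BMF lies near -4.76 and -4.37, and BCL2L11 and MCL1 are filled with DMSO alone, whereas BCL2 is filled with olaparib alone.

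With olaparib, at different doses, 8 of 10 members differed between the lines, 5 higher and 3 lower in UWB1.289, where 76.4% of the 13398 genes tested differed, and 4 passed the study's additional demands, where 36.9% did. BCL2 was among them, with a log2 difference of 1.54 ± 0.37 (SE, adjusted p = 0.00111 by edgeR), as the UWB1.289 libraries held 16 to 21 reads and the OVCAR3 libraries 4 to 14. MCL1 (-0.12, edgeR adjusted p = 0.379) and BCL2L11 (0.34, adjusted p = 0.125) were not called. MCL1 was called without the OVCAR3 olaparib replicate 4, at -0.21 (edgeR adjusted p = 0.0752). BCL2L11 was called when all 16 libraries shared a fit, when no filter was used, and without olaparib replicate 1 of either line.

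The order of the 4 groups was clear for PMAIP1 and BBC3. PMAIP1 rose from OVCAR3 with DMSO (12.98 ± 3.91 CPM) to OVCAR3 with olaparib (24.9 ± 5.25), UWB1.289 with DMSO (37.4 ± 3.50) and UWB1.289 with olaparib (62.8 ± 5.22; SD, n = 4 each). No group overlapped its neighbour in that order. The gap between the lines was narrow, from at most 31.93 CPM in OVCAR3 with olaparib to at least 32.46 CPM in UWB1.289 with DMSO. BBC3 gave the same order, with 19.4 ± 1.16, 25.1 ± 0.882, 31.6 ± 4.34 and 40.5 ± 3.17 CPM, also with neighbours apart. How many of all genes had 4 groups apart in this way was not counted. With DMSO the lines alone were apart for 69.4% of the genes tested. For BCL2, MCL1 and BCL2L11 no pair of neighbours was apart, and for BCL2L1, BAX and BAK1 the neighbours were apart at the step between the lines alone.

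Ratios of anti-apoptotic genes to effector or BH3-only genes were formed within each library, where the scaling between libraries drops out. They are differences of log2 CPM (prior count of 2 reads) and are given without a test. The ratio of MCL1 to PMAIP1 was lower with olaparib in both lines without overlap. It went from 4.38 ± 0.41 to 3.33 ± 0.16 in OVCAR3 and from 2.58 ± 0.11 to 1.88 ± 0.13 in UWB1.289 (SD, n = 4). The highest olaparib value was 3.57 in OVCAR3 and 2.03 in UWB1.289, below the lowest DMSO values of 4.04 and 2.48. The ratio of BCL2 to BAK1 was -3.17 ± 0.20 with DMSO and -4.27 ± 0.45 with olaparib in OVCAR3, with no overlap, at the low counts of BCL2 given above. In UWB1.289 the ratio of BCL2L1 to BAK1 was 3.62 ± 0.23 with DMSO and 3.30 ± 0.09 with olaparib, also apart, with the lowest DMSO value at 3.43 and the highest olaparib value at 3.39. The ratio of BCL2L1 to BCL2L11 was 1.60 ± 0.27 and 2.20 ± 0.63 in OVCAR3, where the olaparib replicate 4 alone gave a value above 3, and the groups overlapped. The ratios of BCL2L1, MCL1 and BCL2 to BAX and of MCL1 to BAK1 overlapped between treatments in both lines. So did those of BCL2 to BAK1 and BCL2L1 to BCL2L11 in UWB1.289, and that of BCL2L1 to BAK1 in OVCAR3.

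**Figure D4:**
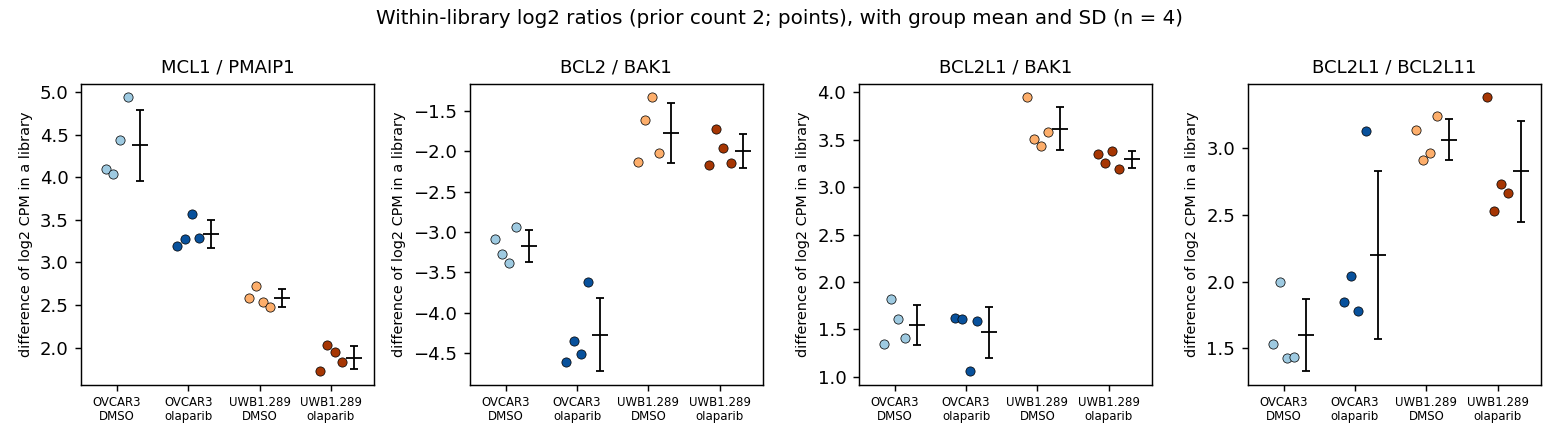
Within-library log2 ratio (difference of log2 CPM, vertical axes) of 4 gene pairs in the 16 libraries (points) by line and treatment, with the group mean and SD as bars. MCL1 to PMAIP1 is lower with olaparib in both lines without overlap, BCL2 to BAK1 is lower in OVCAR3, and the olaparib replicate 4 of OVCAR3 stands above the rest of its group at 3.13 for BCL2L1 to BCL2L11.

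Of the other BCL2 family genes, 9 of 13 had enough counts to be tested in each line, and 3 were called in each, 2 up and 1 down, where 31.5% of all genes tested were called in OVCAR3 and 13.9% in UWB1.289. The share in OVCAR3 (33.3%) was near that of all genes. BIK, a BH3-only gene of the endoplasmic reticulum, rose in both lines. It was at 0.660, 0.873, 0.867 and 1.43 CPM in OVCAR3 with DMSO and 4.34, 5.76, 4.40 and 6.02 CPM after treatment. The log2 fold change was 2.39 ± 0.33 (SE, adjusted p = 2.16e-05 by edgeR), and the DMSO libraries held 4 to 10 reads. In UWB1.289 BIK was at 7.84 CPM with DMSO and 15.4 CPM with olaparib on average. The log2 fold change there was 0.99 ± 0.18 (SE, adjusted p = 0.00102 by edgeR). BCL2L12 rose in OVCAR3, by 0.71, and was at -0.02 in UWB1.289, and the difference of these effects was called (edgeR adjusted p = 0.00142). The mitophagy receptor BNIP3L fell in OVCAR3 (-0.32), and in UWB1.289 the BH3-only gene HRK rose (0.64) and BOK, a relative of BAX and BAK, fell (-0.60). In UWB1.289 the call for HRK was lost without DMSO replicate 1, 3 or 4 or olaparib replicate 2, 3 or 4 (edgeR adjusted p up to 0.172), and that for BOK without DMSO replicate 3 or 4 or olaparib replicate 1, 3 or 4 (up to 0.191). BAD, which binds BCL2 and BCL-XL, did not pass the test in either line (0.09 and -0.14). BCL2A1 had at most 3 counts in any library and could not be tested.

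Another list held genes of mitochondrial release, the apoptosome and the caspases, with inhibitors of apoptosis. Of these, 3 of 13 genes tested were called in OVCAR3 (2 up, 1 down) and 4 of 13 in UWB1.289 (3 up, 1 down). The median log2 fold changes were 0.02 and 0.05. Over all genes tested the shares called were 31.5% and 13.9%, against 23.1% and 30.8% here. BIRC3, an inhibitor-of-apoptosis gene and a target of NF-kB, rose in both, from 0.462 to 5.51 CPM on average in OVCAR3, where the DMSO libraries held 0 to 4 reads, and from 31.0 to 122.0 CPM in UWB1.289 (log2 fold change 1.98 ± 0.11, SE; adjusted p = 1.51e-11 by edgeR). BIRC5, which encodes survivin, rose by 0.26 and 0.27. AIFM1, a mitochondrial oxidoreductase, fell in OVCAR3 (-0.41), and in UWB1.289 BIRC2 rose (0.28) and XIAP, a direct caspase inhibitor, fell (-0.22). In UWB1.289 the calls for BIRC2 and XIAP were lost with no filter on low counts, that for BIRC2 also without DMSO replicate 1, 2 or 3 or olaparib replicate 3 (edgeR adjusted p up to 0.169) and that for XIAP without DMSO replicate 2, 3 or 4 or olaparib replicate 1, 3 or 4 (up to 0.189). The UWB1.289 call for BIRC5 was lost without DMSO replicate 1 or 3 or olaparib replicate 4 (up to 0.116). Of 4 genes of the apoptosome and the caspases (CYCS, APAF1, CASP9 and CASP6), edgeR called 0 in either line, 0 had an unadjusted p below 0.05, and DESeq2 called 0. Of 6 genes that set the stability of MCL1 or BIM, edgeR called 0 in OVCAR3 (0 at an unadjusted p below 0.05, and 0 by DESeq2) and the kinase gene GSK3B fell in UWB1.289 (-0.37). With DMSO, all 6 were called lower in UWB1.289 than in OVCAR3 (median log2 difference -0.82). In that comparison 79.9% of the 13366 genes tested differed in either direction, and 5360 were called lower.

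Among transcription factors known to act on BCL2 family genes, 4 of 8 were called in OVCAR3 (3 up, 1 down) and 3 of 7 in UWB1.289 (2 up, 1 down), where 31.5% and 13.9% of all genes were called. FOXO1, an activator of BCL2L11 in other settings, rose in both lines, by 1.03 ± 0.15 (SE, adjusted p = 5.25e-05 by edgeR) and 0.50 ± 0.12 (adjusted p = 0.00693). STAT3 rose by 0.37 and 0.29. In OVCAR3 RELA rose (0.28) and FOXO3 fell (-0.26), and in UWB1.289 E2F1 fell (-0.42). In OVCAR3 the call for RELA was lost without DMSO replicate 3 (edgeR adjusted p = 0.117) and that for FOXO3 without olaparib replicate 2 (0.104). In UWB1.289 the call for STAT3 was lost without replicate 1 or 2 of DMSO or 1 or 3 of olaparib (up to 0.133), and that for E2F1 without replicate 1, 3 or 4 of DMSO or 3 or 4 of olaparib (up to 0.182).

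PMAIP1 and BBC3 were set beside 18 further genes of the DNA damage response. Of these, 8 of 18 tested were called in OVCAR3 (7 up, 1 down) and 8 of 17 in UWB1.289 (5 up, 3 down), where 31.5% and 13.9% of all genes were called, with medians of 0.26 and 0.00. CDKN1A, the p21 gene, rose in both lines, from 7.04 to 19.2 CPM in OVCAR3 (1.44 ± 0.16, SE; adjusted p = 1.60e-06 by edgeR) and from 3.39 to 7.08 CPM in UWB1.289 (1.07 ± 0.26, SE; adjusted p = 0.0114 by edgeR). The stress cytokine gene GDF15 rose as well, by 1.52 and 0.78, as did the nuclease gene AEN, by 0.76 and 0.67, and the kinase gene PLK3, by 1.18 and 0.53. MDM2, which encodes a ubiquitin ligase, did not pass the test in either line (-0.14 ± 0.10 and -0.15 ± 0.12, SE; edgeR adjusted p = 0.354 and 0.481). Without the olaparib replicate 4 of OVCAR3 it was called down there, at -0.23 (edgeR adjusted p = 0.0754). The death receptor gene FAS rose in OVCAR3 (1.93) and was at 0.15 in UWB1.289, and BTG2 was called up in OVCAR3 (0.63) and down in UWB1.289 (-1.05). The latter call was lost with DESeq2 and without DMSO replicate 1, 2 or 3 or olaparib replicate 3 or 4 (adjusted p up to 0.222). The calls for PLK3 in UWB1.289 (edgeR adjusted p = 0.0607) and for AEN and BTG2 in OVCAR3 (0.00323 and 0.0444) were not examined with libraries left out.

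**Figure D5:**
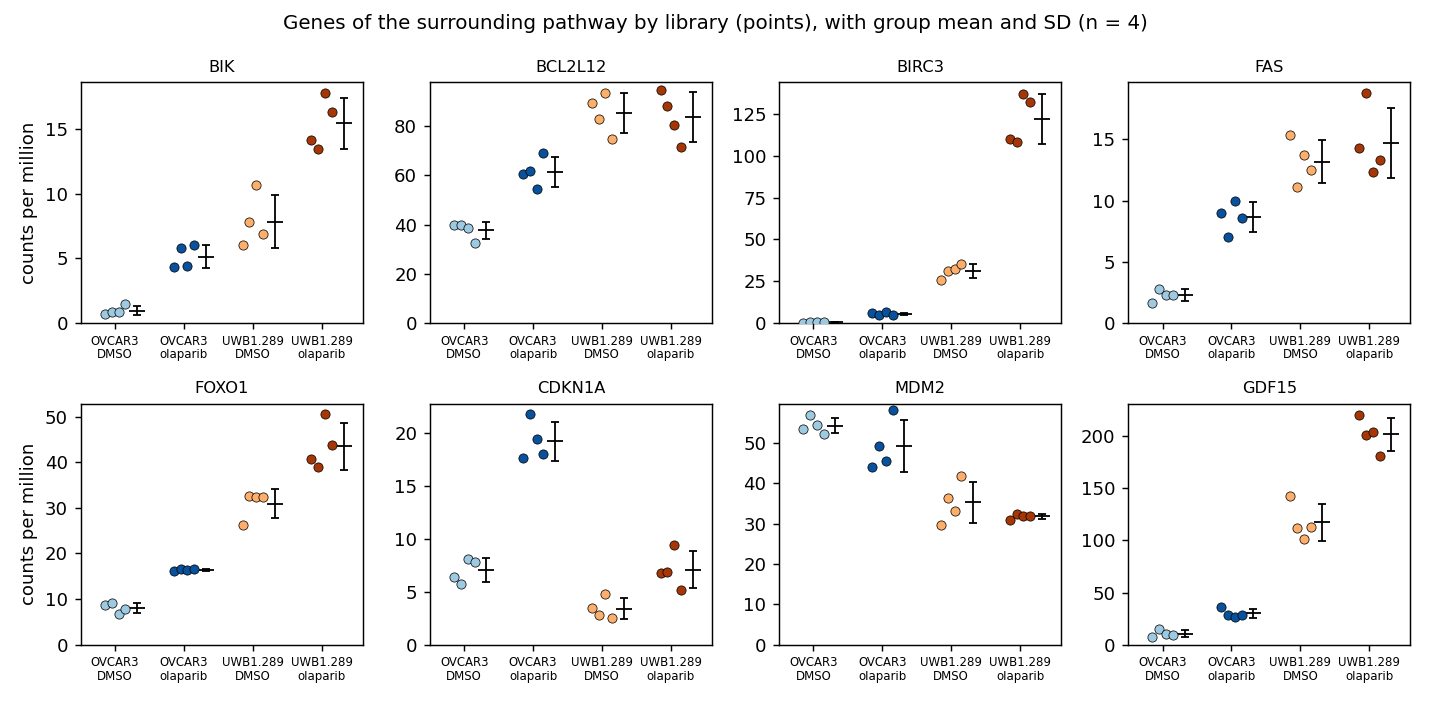
CPM (vertical axes, from 0) of 8 genes around the BCL2 family in the 16 libraries (points) by line and treatment, with the group mean and SD as bars. BIK, BIRC3, FOXO1, CDKN1A and GDF15 are higher with olaparib in both lines without overlap, FAS and BCL2L12 are higher with olaparib in OVCAR3, and MDM2 overlaps between treatments in both lines.

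The genes whose pattern was most like that of a member were sought by Pearson's r of log2 CPM over the 16 libraries among 13234 genes, as a description, since the points share the difference between the lines. For PMAIP1 these were PLAUR (0.97), CD40 (0.97) and RHEBL1 (0.96). PLAUR, the urokinase receptor gene, was at 14.3, 42.4, 76.3 and 125.1 CPM on average in OVCAR3 with DMSO, OVCAR3 with olaparib, UWB1.289 with DMSO and UWB1.289 with olaparib, the same order of groups as PMAIP1. For BMF they were EPHX2 (0.98), MRPL43 (0.98) and ADH5 (0.98), all low in UWB1.289. For BCL2, at its low counts, they included AIFM1 (0.92) and BCL11A (0.91), and for BCL2L11 they were KCTD6 (0.85), AC007405.6 (0.84) and MFSD1 (0.84).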

How the data were processed

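The deposited table held raw, whole-number counts per gene for the 16 QuantSeq 3′ mRNA libraries. Per the labels and the methods of the study, the authors used BBDuk to trim the single-end reads, STAR 2.7.9a for alignment to hg38 and featureCounts 2.0.0 with GENCODE release 38 for counting. Strand handling, multi-mapping reads and overlapping genes are not given in the sources used here. Because reads come from transcript ends, genes were not ranked by level.

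The members, gene lists and tests were chosen with earlier results of these data known. Counts were normalized with TMM and tested with edgeR 4.0.16 in R 4.3.3 (filterByExpr, quasi-likelihood test, Benjamini-Hochberg adjustment over all genes tested) on the 8 libraries of each comparison, and on all 16 for the interaction. A gene was called at an adjusted p below 0.1. The study used DESeq2 and also asked for a change above 2-fold and an average count above 10, and these demands were added here to edgeR's adjusted p. All 10 members were named, and of the lists CDKN1A, MDM2 and at most 4 called genes per comparison by size of change. BAD, BCL2A1, CASP9, CASP6, CYCS and APAF1 were named after their values were seen, as was MIR4435-2HG. Like patterns were sought for the 4 members with the largest called changes. Results for some genes under these rules are not reported here. Totals of 5599571 to 7730228 counts limit the precision of genes near 10 counts.

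Alternatives were DESeq2 1.42.0, its size factors, no filter, all 16 libraries in a fit, the replicate number as a block, an adjusted p below 0.05, a prior count of 0.5 in ratios, and each library left out. The tests given are without the block. As a check for pairing, deviations from the group means were correlated between libraries with the same replicate number over 9541 genes. The values were 0.136 to 0.226 in UWB1.289 and 0.0321 to 0.167 in OVCAR3. In UWB1.289, 3 DMSO and 3 olaparib libraries correlated best with their own number, against 2 and 3 in OVCAR3. Whether replicate numbers pair the libraries is thus not settled in either line. The fits were tested on simulated data. Positions are from GENCODE 44 and promoter windows from RefSeq.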

Additional observations from a re-analysis of the deposited data

Results flagged for a closer look

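Effects of olaparib on the named genes that differed between the lines by the interaction test (edgeR, adjusted p below 0.1) are given as the UWB1.289 effect minus the OVCAR3 effect on the log2 scale. Of the members, BCL2L11 differed by 0.79 (adjusted p = 0.0392). Of other BCL2 family genes, HRK differed by 0.83 (0.0763), BCL2L12 by -0.73 (0.00142), BOK by -1.08 (0.0382) and BIK by -1.40 (0.0156). BIRC3 differed by -1.53 (0.0142) and GSK3B by -0.53 (0.00539). BIK and BIRC3 had few reads in OVCAR3 with DMSO (4 to 10 and 0 to 4). Of the transcription factors, FOXO1 differed by -0.53 (0.0748) and E2F1 by -0.66 (0.0269). Of the DNA damage response genes, 6 of 18 were called (2 up, 4 down), where 10.9% of the 14243 genes tested were called. Among these 6, GDF15, BTG2 and FAS were named, all of them down, and neither of the 2 called up was named. GDF15 differed by -0.74 (0.0142), BTG2 by -1.68 (0.0109) and FAS by -1.78 (8.28e-05). The call for HRK was lost in 10 of the 16 fits with a library left out (adjusted p up to 0.195, and 0.106 without the OVCAR3 olaparib replicate 4), and kept without UWB1.289 DMSO replicate 2 or olaparib replicate 1, or OVCAR3 replicate 1 or 3 of either treatment. That for FOXO1 was lost in 8 of them (up to 0.179) and with no filter on low counts, and kept without UWB1.289 DMSO replicate 1 or olaparib replicate 3 or 4, or OVCAR3 DMSO replicate 1 or 2 or olaparib replicate 1, 2 or 4. BIK, BIRC3, FOXO1 and GDF15 were called up in both lines, and BTG2 was called up in OVCAR3 and down in UWB1.289, where the call was lost with DESeq2 and without DMSO replicate 1, 2 or 3 or olaparib replicate 3 or 4 (adjusted p up to 0.222).

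Single libraries stood far from the other 3 of their group in 7 of 132 groups of 4 libraries tested, and chance gives such a gap in about 1 of 20 groups. For members these were BCL2L11 in OVCAR3 with DMSO, where replicate 2 was at 17.3 CPM and the others at 21.6 to 22.5, and BBC3 in the same library, at 21.1 CPM against 18.7 to 19.0. In OVCAR3 with DMSO, BCL2L12 was at 32.6 CPM in replicate 4 (others 38.7 to 39.7) and BIRC3 at 0.0 CPM in replicate 1 (others 0.572 to 0.699). FOXO1 was at 16.1 CPM in OVCAR3 with olaparib replicate 1 (others 16.5) and at 26.2 CPM in UWB1.289 with DMSO replicate 1 (others 32.3 to 32.6). E2F1 was at 25.3 CPM in UWB1.289 with DMSO replicate 2 (others 30.9 to 32.2).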

How the results depend on the processing

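The count of members called in OVCAR3 with olaparib was 6, and 4 to 6 when a library was left out. In UWB1.289 it was 2, and 1 to 2 when a library was left out (1 without DMSO replicate 1 or 4 or olaparib replicate 1 or 4) and 1 at an adjusted p below 0.05. The count for the interaction was 1, and 0 to 2 with a library left out: 0 without the UWB1.289 olaparib replicate 4 and 2 without the OVCAR3 olaparib replicate 4. With the study's demands on fold and average count added to edgeR's adjusted p, the count was 1 member in OVCAR3, 0 in UWB1.289, 5 between the lines with DMSO, 4 with olaparib and 0 for the interaction. The other alternatives kept these counts within 1.5 times. The replicate block changed no member's call in either olaparib comparison (BBC3 in UWB1.289 0.37, edgeR adjusted p = 0.0371; 1768 calls over all genes became 2379 with the block).

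Changes of sign came only with a library left out and only in values not called: BCL2 in UWB1.289 ranged from -0.039 to 0.346, BCL2L1 from -0.058 to 0.127 and its interaction from -0.163 to 0.043, MCL1 from -0.158 to 0.030 in OVCAR3 and from -0.039 to 0.141 in UWB1.289, and the BBC3 interaction from -0.081 to 0.054. The cause was not tested. Depth limits, among others, BCL2 and, in UWB1.289, BMF and BTG2 (4 to 18 BTG2 reads with olaparib). It also limits BIK and BIRC3 in OVCAR3 with DMSO (4 to 10 and 0 to 4 reads).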
